A study of Mus musculus with 20 samples.

Results

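The genes described here mark the epicardium and the mesothelium, and they were followed in the cardiac ventricle of old and young mice. The list held 10 genes, taken by their symbols: Gpm6a, Upk3b, Efemp1, Msln, Wt1, Upk1b, Krt19, Lrrn4, Bnc1 and Aldh1a2. They are 10 of the 18193 genes that had a probe set of their own on the array, and 15 probe sets measured them. Each gene was read from its probe set with the highest mean. All values are log2 GCRMA values, so a difference of 1 is a doubling of signal, and no value of one gene's probe set can be set against that of another. The filtered comparison took genes above 4 in 10 or more of the 20 arrays. Of the list, 4 genes passed, Gpm6a, Efemp1, Wt1 and Aldh1a2, among 9275 genes in all, and Gpm6a passed through the old arrays, since 10 of 10 old and 1 of 10 young arrays exceeded 4. The other 6 were compared in a fit of all 18193 genes with no filter.

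Old ventricles came from 10 male C57BL/6J mice aged 25 to 28 months, and young ventricles from 10 male C57BL/6J mice aged 4 to 6 months, with 1 array of total RNA from frozen cardiac ventricle per mouse. No treatment or transgene is named for either group, and both are of 1 sex and 1 inbred strain. The study compared transcript levels in the ageing heart. Of 8 genes listed for ventricular muscle, all 8 exceeded 4 in every array and 0 differed after adjustment (1 of 8 in limma at an unadjusted p under 0.05). That gene was Irx4, at -0.58 (limma adjusted p = 0.0845), with 4 old arrays below all young ones. The level of these genes does not show that ventricle alone was sampled. Transcripts of atrial muscle were, however, present in most old arrays. Myl7, the atrial myosin light chain, was at 2.36, 8.27, 12.13, 14.27, 13.27, 14.34, 6.58, 14.03, 14.26 and 14.55 in old replicates 1 to 10, against 2.38 to 2.44 in the young arrays. It exceeded 10 in 7 old arrays. The summed linear signal of the 10 atrial genes was 2423 to 99440 in old and 1856 to 6156 in young arrays. The arrays were also clustered after removal of the age means and cut into 5 sets, and each set held 2 old and 2 young arrays. The mean residual correlation was 0.40 within sets and -0.13 between them. These values only describe the sets, since the same correlations made them. The labels do not say what the sets share. Differences of the genes of the list are given with and without the 7 arrays of high Myl7 further on.

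The epicardium is the mesothelium of the heart, a single layer of flat epithelial cells that covers atria and ventricles alike, and the same kind of layer lines the pericardium, pleura and peritoneum. In the embryo, epicardial cells leave the layer by an epithelial-to-mesenchymal transition and form fibroblasts and mural cells of the coronary vessels. Wt1 and Aldh1a2 are the classical genes of that layer, and retinoic acid made by Aldh1a2 feeds the growth of the underlying muscle. In bulk RNA of a ventricle, a larger layer, more RNA per cell of the layer and a layer carried in with atrial or other tissue cannot be told apart. None of these was tested.

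Most of the genes were higher in old ventricles, and 3 of the 4 widest estimates were of membrane proteins, Gpm6a, Upk3b and Lrrn4, beside the secreted Efemp1. In the filtered fit 3 of the 4 tested genes rose, Gpm6a, Efemp1 and Aldh1a2, where 11.2% of all genes tested were higher (18.7% differed in either direction). In the fit with no filter 7 of 10 rose, these 3 with Upk3b, Msln, Upk1b and Lrrn4, where 7.15% of all 18193 genes were higher (23.9% differed). None of the 10 was lower, while 3044 of all genes were lower in the fit with no filter. Of the 7, the calls of Upk1b and Aldh1a2 were not firm, as given below. The 10 genes were listed with earlier results of these data known, so the shares beside them do not test the list. The median difference over the 10 genes was 1.02, against -0.03 over all genes in the fit with no filter. The summed linear signal of the 10 was 357 to 1197 in old arrays and 203 to 338 in young arrays, a sum in which brighter probe sets such as that of Efemp1 weigh most.

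**Figure D1:**
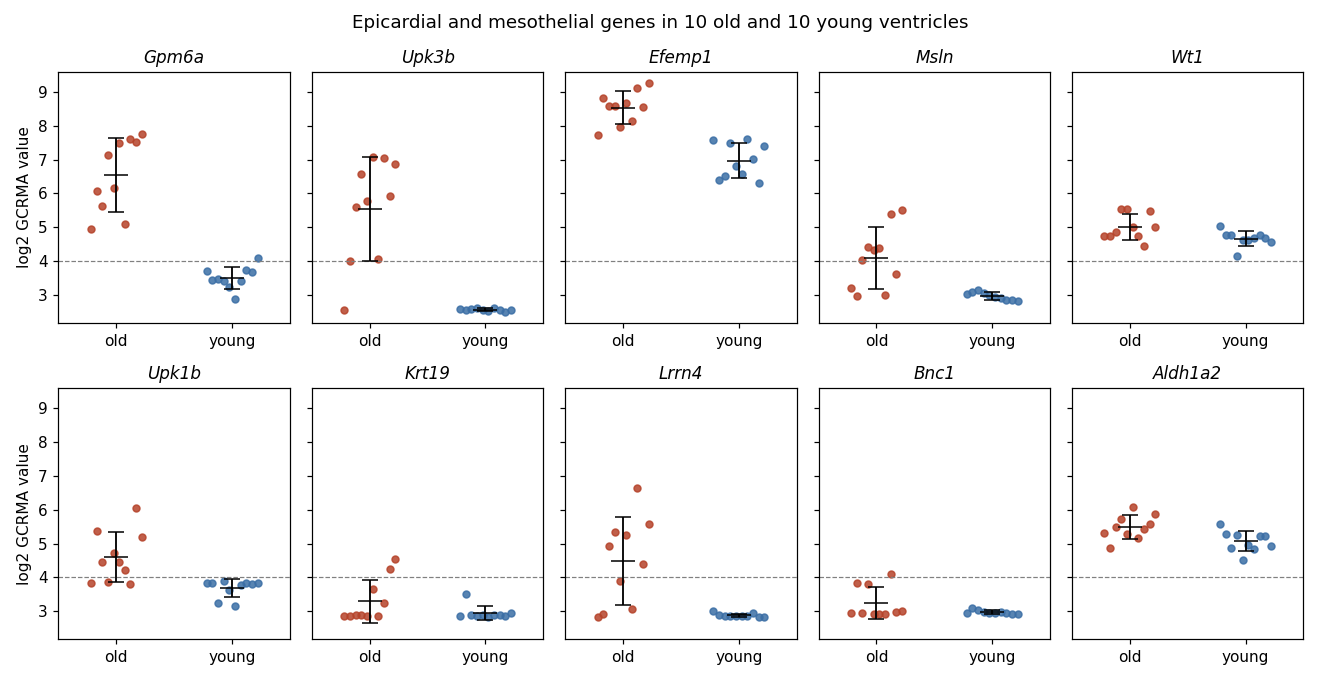
Log2 GCRMA value (y axis, 1 scale for all panels) of each of the 10 genes in the 10 old and the 10 young arrays, 1 point per array, with the group mean and SD; the dashed line is the filter's value of 4. Gpm6a and Efemp1 separate the groups in full, Upk3b, Lrrn4 and Msln spread widely in old arrays over a narrow young level, and Wt1, Krt19, Bnc1 and Aldh1a2 overlap.

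Among the membrane proteins, Gpm6a encodes a four-pass membrane glycoprotein, best known from neurons, that is also a marker of adult mesothelium. It ran from 4.95 to 7.75 with a median of 6.65 in old arrays, and from 2.88 to 4.10 with a median of 3.47 in young arrays. Its lowest old array lay above its highest young array. Its mean ± SD was 6.54 ± 1.09 over the old and 3.51 ± 0.33 over the young ventricles (n = 10 each), a difference of 3.03 (SE 0.33) with an adjusted p of 2.21e-06 in limma. Its other probe set put it at 5.65 ± 0.91 in old and 3.94 ± 0.21 in young arrays, a smaller difference of 1.70, and again 10 of 10 old arrays lay above every young one.

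Upk3b, an uroplakin of the mesothelial and bladder surface, was at the floor in every young heart. It was at 2.56, 4.01, 5.60, 6.57, 5.78, 7.08, 4.07, 7.06, 5.92 and 6.87 in old replicates 1 to 10, against 2.51 to 2.63 with a median of 2.57 in young arrays. Old replicate 1 lay inside the young range and the other 9 old arrays lay above it. Mean ± SD was 5.55 ± 1.53 for old and 2.57 ± 0.04 for young arrays (n = 10 each), and the groups differed by 2.98 (SE 0.47), with an adjusted p of 0.00051 in the limma fit with no filter. The young SD is that of a probe set at the floor of the method and does not measure how the transcript varies there. The second Upk3b probe set gave 1.79, with 8 old arrays above all young ones.

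Lrrn4, a leucine-rich repeat membrane protein, was at 2.83, 2.92, 4.93, 5.33, 3.90, 5.24, 3.08, 6.64, 4.39 and 5.59 in old replicates 1 to 10, and between 2.82 and 3.001 in the young arrays. It exceeded 4 in 6 old arrays and in 0 young arrays. The difference was 1.60 (SE 0.40, adjusted p = 0.0146 in the limma fit with no filter, n = 10 each). Msln encodes mesothelin, the anchored surface glycoprotein of mesothelial cells. Its old values ran from 2.98 to 5.52 with a median of 4.19, its young values from 2.83 to 3.14 with a median of 2.97, and 6 old and 0 young arrays exceeded 4. Those 6 were old replicates 3, 4, 5, 6, 8 and 10 for Msln, and 3, 4, 6, 8, 9 and 10 for Lrrn4. The Msln difference of 1.12 (SE 0.28) had an adjusted p of 0.0159 in the same fit. For both genes old replicates 8 and 10 were the highest, and 8 old arrays lay above all young ones, though old replicate 7 was among them for Lrrn4 alone and old replicate 1 for Msln alone.

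Upk1b, the tetraspanin partner of uroplakin 3 proteins, gave a value that depended on the probe set. Its leading probe set, of a kind whose probes can match other transcripts as well, was at 3.80 to 6.04 with a median of 4.46 in old arrays and at 3.16 to 3.89 with a median of 3.83 in young ones. That is a difference of 0.91 (SE 0.24, adjusted p = 0.0215 in the limma fit with no filter), with 7 old arrays above all young ones. Its other 3 probe sets differed by 0.11, 0.14 and 0.47 and exceeded 4 in 0, 0 and 1 old arrays. The arrays that were high did not coincide either, since old replicate 9 led in the leading probe set at 6.04 and old replicate 6 in the other 3. Its change is therefore uncertain.

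Efemp1 encodes fibulin-3, a secreted glycoprotein of the extracellular matrix that fibroblasts make as well as mesothelium, and it was well above the floor in every array. Its values ran from 7.71 to 9.25 with a median of 8.57 in old arrays, against 6.30 to 7.60 with a median of 6.92 in young arrays. The groups did not overlap. Mean ± SD was 8.53 ± 0.49 for old and 6.97 ± 0.52 for young arrays (n = 10 each), and the groups differed by 1.56 (SE 0.21, adjusted p = 1.94e-05 in limma).

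Regulators and a retinoid enzyme follow. Wt1, the zinc finger transcription factor of the epicardium that endothelial cells of the heart can also express, ran from 4.44 to 5.55 in old arrays (median 4.93) and from 4.14 to 5.03 in young arrays (median 4.69). The difference of 0.34 (SE 0.14) missed the threshold in limma, with an adjusted p of 0.0842, and 3 old arrays lay above all young ones. It passed without old replicate 8, the lowest old array (0.41, adjusted p = 0.0355). Aldh1a2, which makes retinoic acid from retinal, was at 4.87 to 6.08 (median 5.45) in old and 4.53 to 5.57 (median 5.09) in young arrays, and 4 old arrays lay above all young ones. Its difference of 0.41 (SE 0.14) passed narrowly, with an adjusted p of 0.0446 in limma. The call was lost when any of 12 arrays was left out, old replicates 3, 4, 6, 8, 9 and 10 or young replicates 13, 15, 16, 17, 19 and 20 (0.35 to 0.43, adjusted p from 0.0512 to 0.0848). It was also lost after quantile normalization (0.30, adjusted p = 0.149).

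Bnc1, a zinc finger protein of keratinocytes and mesothelium, stood at the floor in most arrays. It was at 3.83, 3.82 and 4.11 in old replicates 2, 4 and 8 and at its low level in the other 7 old arrays, against 2.91 to 3.11 in young arrays. The difference of 0.27 (SE 0.15) did not pass, with an adjusted p of 0.161 in the limma fit with no filter. Krt19, a keratin of simple epithelia, was high in old replicates 6, 9 and 10 at 3.65, 4.26 and 4.56, and its median was 2.88 in old and 2.88 in young arrays. It differed by 0.35 (SE 0.21), which did not pass either (adjusted p = 0.201 in the same fit). Old replicate 8, the highest in Bnc1, had a Krt19 value of 3.24, below the highest young array but above the other 9.

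**Figure D2:**
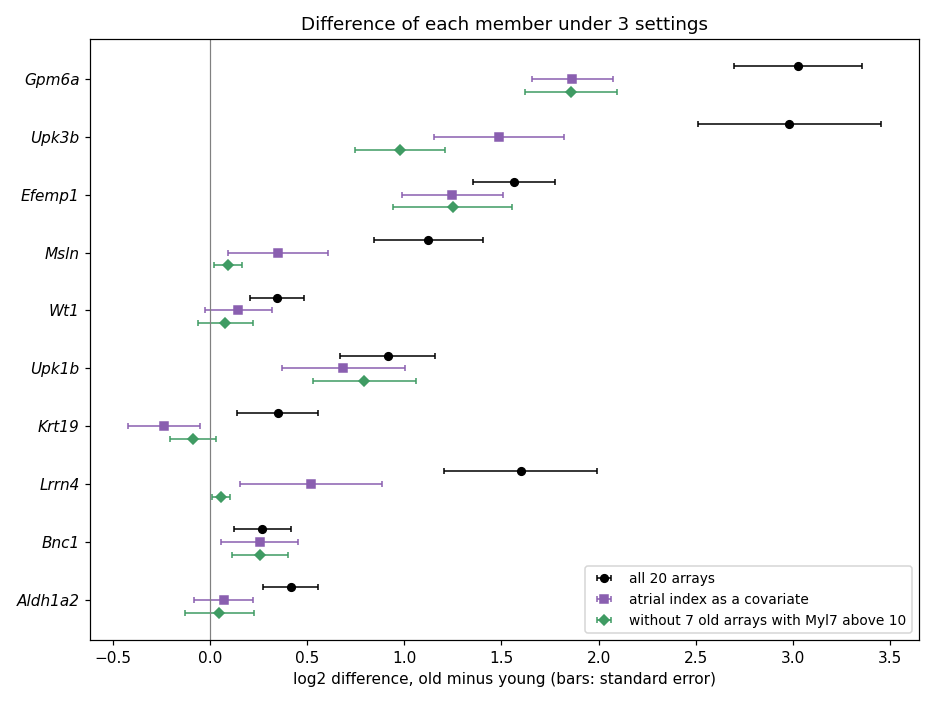
Difference of each of the 10 genes, old minus young, in log2 units (x axis), in all arrays, with the atrial index as a covariate and without the 7 old arrays of high Myl7, with standard errors. Gpm6a and Efemp1 stay at 1.86 and 1.25 in both restricted fits, while Msln, Lrrn4 and Aldh1a2 lie at 0.09, 0.06 and 0.05 without those arrays.

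The differences were next set against the atrial transcripts, which most of the old arrays carried. With an index of Myl7 and Sln as a covariate, Gpm6a, Upk3b and Efemp1 passed, at 1.86, 1.49 and 1.25 (limma adjusted p of 1.19e-05, 0.0317 and 0.00787). Myl7 and Sln themselves also passed with this covariate, at 5.01 and 4.01 (adjusted p of 0.0142 and 0.0202 with no filter). The index therefore did not take out all of the atrial signal. Msln was then at 0.35, Lrrn4 at 0.52, Upk1b at 0.69, Wt1 at 0.15 and Aldh1a2 at 0.07, and none of these 5 passed (adjusted p from 0.196 to 0.855). Without the 7 old arrays whose Myl7 exceeded 10, which leaves 3 old arrays against 10 young ones, Gpm6a was at 1.86 (adjusted p = 0.000343 in the filtered fit and 0.00268 with no filter). Efemp1 was at 1.25 and passed in the filtered fit (adjusted p = 0.0406) but not in the fit with no filter (0.111). In that comparison Upk3b was at 0.98 with an adjusted p of 0.0713, and Upk1b at 0.79 with one of 0.205. The estimates of Msln, Lrrn4 and Aldh1a2 were 0.09, 0.06 and 0.05 there, and none of these passed (adjusted p of 0.401, 0.411 and 0.919). With 3 old arrays that comparison is small, and 2 of them, old replicates 2 and 7, still had Myl7 well above the young level.

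The 3 old arrays with Myl7 under 10 can be read one by one. Old replicate 1, whose Myl7 of 2.36 was at the young level, lay above every young array in 3 of the 10 genes: Gpm6a at 4.95, Efemp1 at 7.71 and Msln at 3.20. Its Upk3b of 2.56 and Lrrn4 of 2.83 were inside the young range. Old replicate 2 lay above every young array in 5 genes, Gpm6a, Upk3b, Efemp1, Upk1b and Bnc1, and old replicate 7 in 5 as well, Gpm6a, Upk3b, Efemp1, Upk1b and Lrrn4. In none of the 3 was any of the 10 genes below every young array. The Msln value of old replicate 1 and the Lrrn4 value of old replicate 7, 3.08, lay under the filter's value of 4. They were just above the highest young values of 3.14 and 3.001. The Efemp1 value of old replicate 1 was also only narrowly above its highest young value of 7.60. How many of all genes lay above every young array in these old arrays was not counted, so the counts have no share beside them. Within the 5 array sets the difference was above 0 in 5 of 5 sets for Gpm6a (1.60 to 4.22), Upk3b (0.71 to 3.89), Efemp1 (0.76 to 2.12), Msln (0.16 to 1.59) and Upk1b (0.19 to 1.79). It was above 0 in 4 sets for Lrrn4 (-0.04 to 2.24), Bnc1 (-0.03 to 0.58) and Aldh1a2 (-0.17 to 0.93), and in 3 sets for Wt1 (-0.14 to 0.85) and Krt19 (-0.32 to 1.54). The set that holds old replicates 1 and 2 gave the lowest difference for Gpm6a, Upk3b, Efemp1, Msln, Lrrn4 and Aldh1a2.

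**Figure D3:**
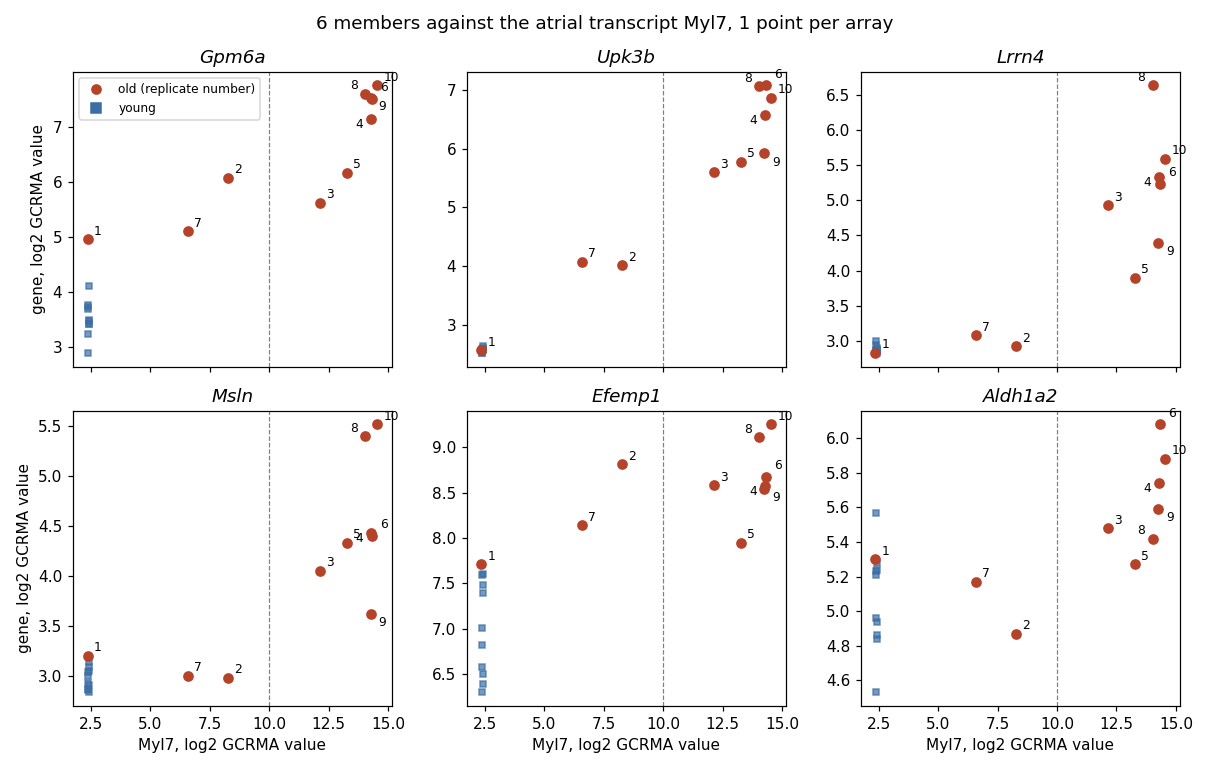
Log2 GCRMA value of 6 of the genes (y axis) against that of Myl7 (x axis), 1 point per array, with old arrays numbered by replicate; the dashed line marks a Myl7 value of 10. The young arrays sit at a Myl7 of 2.38 to 2.44, and in the 3 old arrays left of the line Gpm6a and Efemp1 already lie above the young range. For Efemp1 in old replicate 1 the margin is narrow.

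Among the 7 old arrays with Myl7 above 10, all 10 genes had a slope on Myl7 above 0, and none passed the test. The slopes of Wt1, Msln, Upk1b, Lrrn4 and Bnc1 were smaller than their SE. The share of all genes with a slope above 0 was not counted, and their median slope was -0.0012 in the fit with no filter. Over all 18192 other genes in that fit 0 passed, which is 0% (380 at an unadjusted p under 0.05 in limma). Gpm6a had the steepest relation, a slope of 0.91 (SE 0.14), a Pearson r of 0.949 (exact permutation p = 0.0155, two-sided) and a Spearman rho of 0.679 (exact p = 0.11). The Pearson r was 0.258 once old replicates 3 and 5, the farthest in Myl7, were left out, so the relation rests on those arrays. For Upk3b the slope was 0.54 (SE 0.20), r was 0.737 (exact p = 0.0444) and rho 0.714 (exact p = 0.0881), and without the same arrays r was -0.02. Aldh1a2 had an r of 0.585 (exact p = 0.144) and a rho of 0.857 (exact p = 0.0238), and r was 0.733 without these arrays. These were 10 relations, and with adjustment over all genes none of them held.

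**Figure D4:**
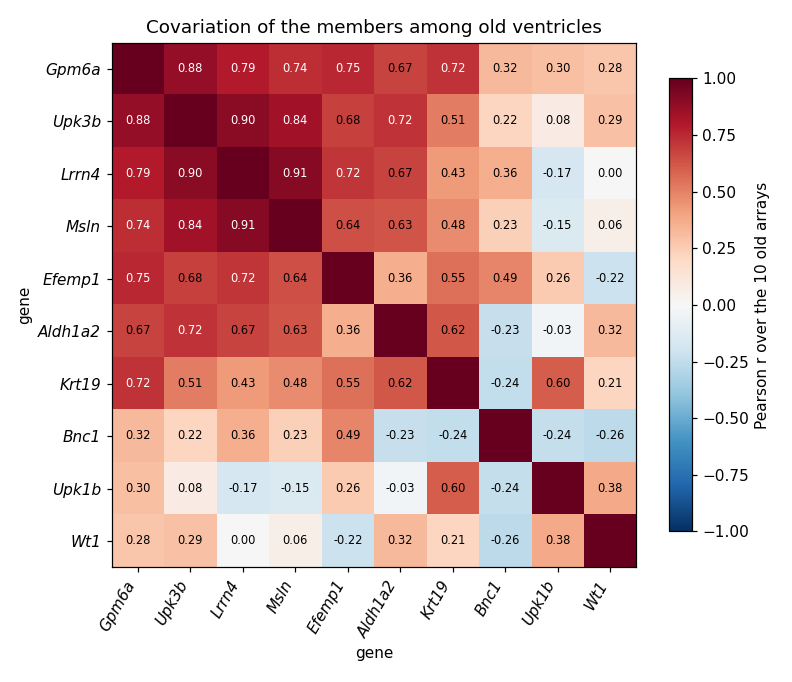
Pearson r between each pair of the 10 genes over the 10 old arrays (colour scale from -1 to 1, value in each cell). Gpm6a, Upk3b, Lrrn4 and Msln form a block of high values, whereas Wt1, Upk1b and Bnc1 correlate weakly with it.

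The genes did not vary as one unit among the old ventricles. Over the 45 pairs the median Pearson r was 0.377, from -0.26 for Wt1 with Bnc1 to 0.908 for Msln with Lrrn4, and 37 pairs were above 0. These arrays share the sets and the atrial transcripts described above. Upk3b served as the anchor for a fit over all genes in the 10 old arrays, in which 26 of 9275 genes rose with it, or 0.28%, and Gpm6a was among them at a slope of 0.62 (SE 0.11, adjusted p = 0.0355 in limma). The Gpm6a slope passed in 4 of 10 fits that dropped 1 old array and missed the threshold without old replicate 1, 2, 4, 6, 7 or 10 (slopes of 0.58 to 0.70, adjusted p from 0.0557 to 0.266). It also missed it after quantile normalization, with no filter, with the array set as a block (0.86) and with Myl7 as a further covariate (0.52, adjusted p = 0.899). With no filter 5 genes rose with Upk3b, 0.0275% of 18192, and none was of the list. They were Creb3l2, Gne and the atrial genes Myl7, Sln and Myl4, named here after their values were seen. Myl7 had a slope of 2.66 on Upk3b (SE 0.25, adjusted p = 0.0154).

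Lrrn4 followed Upk3b over the 10 old arrays with an r of 0.905 (permutation p = 1e-04, two-sided) and a rho of 0.891 (permutation p = 0.00136), and r was 0.880 without old replicates 1 and 2, the farthest in Upk3b. Within the 7 arrays of high Myl7 its r was 0.778 (exact p = 0.0337). Msln gave an r of 0.841 (permutation p = 0.00122) and a rho of 0.842 (permutation p = 0.00376), with 0.845 without the same arrays and 0.718 within the 7 (exact p = 0.0718). Gpm6a gave an r of 0.876 (permutation p = 0.00168) and a rho of 0.855 (permutation p = 0.00324), with 0.888 without the same arrays and 0.798 within the 7 (exact p = 0.0333). Within the 7, leaving out old replicates 3 and 5 gave an r of 0.257 for Gpm6a, 0.780 for Lrrn4 and 0.763 for Msln. The atrial genes Myl7 and Sln followed Upk3b over the 10 old arrays with r of 0.963 and 0.958, higher than any of the 9 other listed genes. Of the 9 relations to Upk3b the weakest were those of Wt1, Bnc1 and Upk1b, with r of 0.294, 0.216 and 0.083 (permutation p of 0.417, 0.602 and 0.848). With adjustment over all genes only Gpm6a passed, in the filtered fit, and Lrrn4 and Msln had adjusted p of 0.0681 and 0.162 in the fit with no filter. Lrrn4 passed there without old replicate 8 (slope 0.67, adjusted p = 0.0475).

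The promoters are shown for 3 surface genes that varied together and for the retinoid enzyme, as the stretch from 250 bases before to 50 after the start of the gene (RefSeq, build GRCm38.p6, strand of the gene, 5′ to 3′). The windows are chr8:54779184-54779483 for Gpm6a (first of its 2 windows, plus strand), chr5:136038246-136038545 for Upk3b (plus strand), chr2:132880813-132881112 for Lrrn4 (minus strand) and chr9:71215539-71215838 for Aldh1a2 (plus strand). Capitals mark the matches to 4 short motifs searched on both strands: GGAATG of the TEAD factors, AGGTCA of nuclear receptors such as those for retinoic acid, GCGTGGG of the WT1 and EGR zinc fingers, and TGACTCA of AP-1.
Gpm6a: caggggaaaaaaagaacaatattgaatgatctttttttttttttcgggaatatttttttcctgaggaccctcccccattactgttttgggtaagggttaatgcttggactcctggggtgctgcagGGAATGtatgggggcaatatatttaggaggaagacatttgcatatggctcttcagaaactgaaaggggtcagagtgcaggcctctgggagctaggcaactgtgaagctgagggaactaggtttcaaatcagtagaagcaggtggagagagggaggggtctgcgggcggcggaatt
Upk3b: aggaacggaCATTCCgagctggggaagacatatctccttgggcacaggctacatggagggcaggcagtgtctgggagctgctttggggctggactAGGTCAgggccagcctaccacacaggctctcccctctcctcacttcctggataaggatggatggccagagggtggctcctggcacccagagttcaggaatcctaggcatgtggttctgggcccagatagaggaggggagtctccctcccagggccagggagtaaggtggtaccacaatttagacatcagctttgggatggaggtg
Lrrn4: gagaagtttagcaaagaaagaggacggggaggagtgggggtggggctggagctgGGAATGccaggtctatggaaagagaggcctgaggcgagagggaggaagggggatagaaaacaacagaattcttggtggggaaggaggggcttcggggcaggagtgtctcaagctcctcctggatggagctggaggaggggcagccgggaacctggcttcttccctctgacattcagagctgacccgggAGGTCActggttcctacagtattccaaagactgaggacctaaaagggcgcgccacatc
Aldh1a2: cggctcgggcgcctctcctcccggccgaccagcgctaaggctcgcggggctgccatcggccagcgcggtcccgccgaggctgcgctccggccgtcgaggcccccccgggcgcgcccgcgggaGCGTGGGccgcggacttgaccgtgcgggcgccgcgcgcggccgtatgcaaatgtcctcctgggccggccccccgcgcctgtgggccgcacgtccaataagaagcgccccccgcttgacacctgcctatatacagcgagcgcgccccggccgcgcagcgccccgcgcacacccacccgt

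The table of promoters held 6 of the 10 genes in 7 windows, and Msln, Wt1, Upk1b and Krt19 were not among them. GGAATG was found in Gpm6a, 125 bases before the start, in Lrrn4, 196 bases before it, and in Upk3b, 241 bases before it, where it lies on the opposite strand and reads CATTCC. These are 3 of 7 windows, while 14.7% of all 32851 promoter windows hold it. AGGTCA was found in Lrrn4, 8 bases before the start, and in Upk3b, 155 bases before it, and 16.3% of all windows hold it. GCGTGGG occurred in Aldh1a2, 128 bases before the start, and in 5.04% of all windows. TGACTCA occurred in none of the 7 windows and in 5.20% of all. No 2 of the marked matches overlap. A match of 6 or 7 letters describes the sequence only and shows no binding.

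Other genes of the mesothelial surface gave a mixed picture. Of 22 listed genes 21 were on the array, 7 were tested, and 3 rose and 0 fell, with a median difference of 0.56 over the 7 against 0.01 over all genes tested. Of all genes tested, 11.2% were higher and 18.7% differed in either direction. Prg4, the lubricating proteoglycan that is also made by valve cells, was higher by 2.17 (limma adjusted p = 2.08e-06), Pdpn, podoplanin, by 1.65 (1.65e-05) and Igfbp6, an IGF-binding protein, by 1.36 (0.000714). Slc9a3r1, a scaffold of microvilli, was at 0.46 (adjusted p = 0.169). Several defining genes of mesothelium were not detected above the filter's value, since Muc16, Krt7, Calb2, Nkain4, Anxa8, Chst4, Wnt2b and Cdh3 were below 4 in every array. Nkain4, read with no filter like the 10 genes, ran from 2.52 to 3.90 in old and from 2.54 to 2.58 in young arrays, a difference of 0.46 (adjusted p = 0.035). Chst4 was called lower in the same limma fit, at -0.05 (adjusted p = 0.0402), but its values stayed at the floor (2.56 to 2.69 in old, 2.65 to 2.72 in young arrays). That fit called 3044 genes lower and 1301 higher. Lep and Sftpa1, also below 4 in every array, were called lower by similar amounts, at -0.05 and -0.06 (adjusted p of 0.0448 and 0.0369). Such calls at the floor give no level of a transcript. The rest of these mesothelial genes did not pass (adjusted p from 0.0805 to 0.218). Muc16, Krt7 and Anxa8 were at 0.20, 0.30 and 0.14, and Calb2, Wnt2b and Cdh3 at -0.02, -0.02 and -0.09. Muc16 reached 2.97 and Krt7 3.67 in old replicate 6, against 1.99 and 2.71 as the highest young values. Without the 7 arrays of high Myl7, Prg4 was at 1.94, Pdpn at 1.26 and Igfbp6 at 0.75 (adjusted p of 0.0154, 0.0134 and 0.181 in the filtered fit). In the limma fit with no filter Pdpn passed (0.0428) but Prg4 did not (0.0557). The list summed to 1054 to 2424 linear units in old and 816 to 1372 in young arrays.

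Of 20 genes of epicardial development, all on the array, 16 were tested, and 6 rose and 1 fell, with a median difference of 0.32. The shares over all genes tested were 11.2% higher and 18.7% in either direction. Vcam1, the adhesion molecule that the epicardium needs to attach to the muscle, was higher by 1.35 (limma adjusted p = 7.99e-06), Tcf21, a transcription factor of epicardium and cardiac fibroblasts, by 0.88 (0.00839) and Nr2f2, a nuclear receptor of atria and veins, by 0.70 (0.00883). Hand2, a transcription factor of the heart, was the gene that fell, by 0.48 (adjusted p = 0.00763). Without the 7 arrays Vcam1 was at 1.01 (0.00179), while Tcf21 at 0.38, Nr2f2 at 0.30 and Hand2 at -0.25 did not pass (0.505, 0.511 and 0.416). Scx and Gata5 were below 4 in every array.

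Of 16 genes of the retinoic acid pathway, 15 were on the array and 7 were tested, and 2 rose and 1 fell, with a median difference of 0.18. Here and for the relatives below, the shares over all genes tested were again 11.2% higher and 18.7% in either direction. Rarres2, the secreted protein chemerin named for its induction by retinoids, was higher by 0.93 (limma adjusted p = 0.000923) and Aldh1a1, another retinal dehydrogenase, by 0.85 (0.00518). Rxra, the partner of the retinoic acid receptors, fell by 0.41 (0.00611), and Rdh10, which makes retinal from retinol, was at 0.18 (adjusted p = 0.26). Among 16 relatives of the listed genes, by family or name, 13 were on the array, 6 were tested, and 4 rose and 0 fell. Fbln2, Fbln5 and Fbln1, fibulins like the product of Efemp1, were higher by 0.91, 0.81 and 0.84 (adjusted p of 0.00114, 0.00178 and 0.0428), and Wtip, named for its binding to WT1, by 0.77 (0.00197). Without the 7 arrays none of these passed, with Rarres2 at 0.59, Aldh1a1 at 0.65, Rxra at -0.36, Fbln2 at 0.54, Fbln5 at 0.57, Fbln1 at -0.20 and Wtip at 0.15 (adjusted p from 0.0819 to 0.739). The uroplakins Upk2 and Upk3a were below 4 in every array.

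Markers of other tissues moved beside these genes, and their part in the differences was not tested. Of the atrial genes 5 of 6 tested rose, of the valve genes 5 of 5 and of the fibroblast genes 5 of 9 (median 0.41), and 0 fell in each. Over all genes tested 11.2% rose. The lists overlap, since Prg4 is both a valve and a mesothelial entry, and Tcf21 and Pdgfra are both fibroblast and epicardial entries. Of the valve genes Comp (4.07 to 8.28 in old, 3.004 to 3.75 in young arrays) and Fmod (4.21 to 8.60 in old, 3.46 to 4.21 in young arrays) passed the filter through the old arrays, like Gpm6a, and the remaining valve gene, Chad, was not tested after the filter. The summed signal of the valve genes was 405 to 1483 in old and 115 to 264 in young arrays, that of the fibroblast genes 8965 to 17177 in old and 7562 to 11465 in young arrays. Adipocyte genes moved in some old arrays. Adipoq, which encodes adiponectin, ran from 2.30 to 12.02 in old and from 2.10 to 2.37 in young arrays (3.38, adjusted p = 0.0309 with no filter), and Car3, a carbonic anhydrase of fat and muscle, was the 1 of 2 tested that rose (5.28, adjusted p = 0.000261). Car3 ran from 5.42 to 14.56 in old and from 2.90 to 6.97 in young arrays, so the old arrays alone carried it past the filter. Cidec and Retn reached 8.01 and 7.68 in old arrays, against 2.93 and 2.19 as the highest young values. The adipocyte list summed to 19255 to 64174 in old and 18190 to 21389 in young arrays. Of the vessel wall genes 1 of 6 tested rose and 0 fell, beside the 11.2% of all genes tested. Their median difference was 0.71, and their summed signal was 1850 to 14243 in old and 1470 to 3750 in young arrays. Of the skeletal muscle genes 1 of 2 rose, too few to set against the share over all genes. Of the 9 genes of lung and other epithelium 7 were below 4 in all arrays, Sftpa1, Sftpb, Sftpc, Sftpd, Scgb1a1, Epcam and Cldn18. Their list summed to 62.3 to 92.7 in old and 66.7 to 73.8 in young arrays.

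Genes that varied most like the list within the age groups were sought over the 20 arrays, after removal of the group means, against the mean of the 4 genes that passed the filter. Among genes that passed the filter the 8 nearest were Pum3 (r of 0.837), Sertad4 (0.820), Cdon (0.820), Lgals3 (0.810), Smim1 (0.809), Gng2 (0.806), Slc5a3 (0.806) and Myl1 (0.804). Sln and Myl7, which failed the filter and so were not ranked, stood at 0.811 and 0.781 on the same measure. These arrays share the 5 sets, and the values are a description without a test.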

How the data were processed

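The samples were 20 Affymetrix MOE430 2.0 arrays, which measure each transcript with a set of short probes. Groups were taken from the titles, and the ages from the labels' protocols; the series' design text calls both age ranges young, where titles and protocols were followed instead. The deposited values are on a log2 scale and, per the submitters' processing notes, were made by the authors with GCRMA, which corrects background and normalizes between arrays; its version is not given in the sources used here. GCRMA gives undetected transcripts nearly the same low value, so that differences of genes that leave this floor are steep, and the number of arrays limits the precision. Values ran from 0.98 to 16.01. Of 45101 probe sets 64 were controls, 34945 had 1 gene in the platform annotation, 932 had several and 9160 were unnamed here, and only those with 1 gene were used. Symbols were updated by gene identifier for 34741 probe sets from a gene table of GRCm38.p6.

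A gene's value was that of the brightest probe set by mean, among those that passed the filter where one applied. The comparison of the ages used limma 3.58.1 (lmFit, eBayes) in R 4.3.3, with Benjamini-Hochberg adjustment over all genes of a fit and a threshold of 0.05. The adjusted p of a gene that fails the filter is from the fit with no filter. The slopes on Myl7 and on Upk3b were limma fits over 7 and 10 old arrays. Permutation tests were two-sided, exact for 7 arrays and with 100000 resamples otherwise. Array sets came from clustering the residuals from the age means. The atrial index was the mean of linear Myl7 and Sln, each relative to its highest array. No 2 arrays held identical values. The scripts were tested on simulated data. Other settings were quantile normalization, median centring, no filter, a stricter filter, other probe set rules, array set as a block, the atrial index, arrays left out and, chosen after seeing the data, index and set together.

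The genes and lists were chosen with earlier results of these data known. Genes named were the 10 listed, in each of 4 lists the 4 tested genes of smallest p, the 8 genes most like the list over arrays, and Myl7 and Sln. Genes named as below 4, and others outside this rule, were chosen after their values were seen.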

Additional observations from a re-analysis of the deposited data

Results flagged for a closer look

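In the young group 1 array stood apart for each of 2 genes, by the gap to its nearest neighbour as a share of the group's range. The Krt19 value of young replicate 12 was 3.52, the next highest young value was 2.95, and the ratio was 0.844. The Wt1 value of young replicate 14 was 4.14, the next lowest young value was 4.58, and the ratio was 0.49. Both genes missed the threshold between the ages. In all 20 groups were examined, 10 genes in each age, and chance gives such a gap in about 1 in 20 groups.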

How the results depend on the processing

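The number of genes that differed between the ages was 1732, and it was 4345 with no filter, 3344 with the array set as a block, 347 with the atrial index, 272 without the 7 old arrays of high Myl7 and 579 with index and set together. It was 1391 to 1830 over the fits that left out 1 array. Of the 10 genes 3 were higher in the filtered fit, 7 with no filter and 1 when a value above 6 was required, and 2 to 3 when 1 array was left out. Of all 10 fitted without a filter, 7 were higher, but 3 with the atrial index, 1 without the 7 arrays and 3 with index and set together. Krt19 reversed to -0.24 with the index, -0.0867 without the 7 arrays and -0.18 with index and set, and Aldh1a2 to -0.0189 with index and set. The cause was not tested.

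The relation to Myl7 called 0 genes in 7 old arrays and 21 in all 10, and Upk3b passed there in the fit with no filter (slope 0.35, adjusted p = 0.00974). The relation to Upk3b called 30 genes, but 19 after quantile normalization, 6 with no filter, 12 with Gpm6a in its place, 0 with Myl7 as a covariate, 0 with the set as a block and 0 to 66 when 1 array was left out. Slopes on Upk3b reversed for Wt1 (-0.52 with Myl7 as a covariate, -0.0941 with the set) and Upk1b (-1.23 and -0.0516). When 1 array was left out, slopes on Myl7 ran from -0.25 to 0.14 for Wt1 and from -0.00312 to 0.29 for Upk1b, and slopes on Upk3b from -0.15 to 0.12 for Upk1b and from -0.0022 to 0.13 for Bnc1. Gpm6a and Efemp1 passed under each of their 28 other settings in the filtered table, but without the 7 arrays Efemp1 did not pass in the fit with no filter (adjusted p = 0.111). Of all calls 59.9% were higher in old as deposited, 43.3% after quantile normalization and 68.6% after median centring, and the median difference of all genes was 0.01, -0.06 and 0.04. No paired analysis was possible because no replicate number is shared by the groups. Signal near the floor limits Upk3b, Msln, Upk1b, Krt19, Lrrn4 and Bnc1 in young arrays, where the values give no level.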

Other observations

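Some genes of simple epithelia had a peak in 1 old array, and they were picked after their values were seen. Krt18 was at 8.24 in old replicate 8, at 5.34 in old replicate 6 and at 3.41 to 4.39 in old replicates 3, 4, 5, 9 and 10. Young arrays had 2.87 to 3.01, and old replicates 1, 2 and 7 had 2.85 to 2.92. The old arrays above the young Krt18 range were thus the 7 with Myl7 above 10. Its partner Krt8 was at 6.94 in old replicate 8 and at 3.21 to 3.62 in old replicates 4, 6, 9 and 10. In the remaining old arrays it was at 2.59 to 2.74, and in young arrays at 2.59 to 2.96. In old replicate 8 Lrrn4 and Bnc1 had their highest values, 6.64 and 4.11. Cdh1, E-cadherin, was at 4.77 there, against 2.80 to 2.93 in the other 9 old arrays, and Epcam was at 3.32. Slpi, a secreted protease inhibitor, was at 8.10 in old replicate 9, against 3.18 to 3.63 in the other 9 old arrays and 3.35 to 3.44 in young arrays. Rspo1, a secreted Wnt agonist of the mesothelium, was broader: it was at 2.70 to 5.49 in old and 2.55 to 2.68 in young arrays, a difference of 1.15 (adjusted p = 0.0102 in the limma fit with no filter), and 0.44 without the 7 old arrays of high Myl7 (adjusted p = 0.0428).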
